A study of Mus musculus with 6 samples.

Results

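Keratins form the intermediate filaments of epithelial cells, and 10 keratin genes of the colon were followed here through RNA-seq of intestinal epithelial cells (IECs) from mice with colitis. The genes were taken by symbol from a table of 55487 genes, in which each symbol had a single row. They comprised 6 simple-epithelial keratins (Krt8, Krt18, Krt19, Krt20, Krt7 and Krt23) and 4 keratins placed together as stress or squamous keratins (Krt14, Krt17, Krt36 and Krt80). Of the second class, Krt14 is known from basal cells of stratified epithelium, Krt17 from injured skin and appendages, and Krt36 is a hair-type keratin that is also found in colon. The name of this class is a label only, since Krt36 made up 57.8% to 95.7% of its summed signal, scaled to exon length.

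The 6 libraries, 3 of Nsd2 f/f and 3 of Nsd2 Vil-KO mice, were all labelled as DSS-treated colon IECs. Nsd2 f/f mice, whose libraries are labelled WT, carry loxP sites around both copies of Nsd2, the gene of a histone H3K36 methyltransferase, and keep it intact. Nsd2 Vil-KO mice carry the same floxed alleles with Cre under the Villin promoter, which acts in intestinal epithelium, so that non-epithelial cells keep the gene. Both were on a C57BL/6J background, and the study's methods give 2 months as the age at which colitis was induced. Dextran sodium sulphate (DSS) was given to both genotypes, it damages the colonic epithelium, and no untreated library was included. IECs were shaken loose from colon pieces after EDTA, without a sort, and the day of collection for RNA-seq is not given in the sources used here. Whether a library came from 1 animal or a pool is not given there either, so p-values measure the spread between these libraries.

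Keratin filaments assemble from pairs of 1 type I and 1 type II protein, and an unpaired keratin is degraded. In the intestine Krt8 is the main type II keratin, while Krt18, Krt19 and Krt20 are its type I partners, with Krt20 known from differentiated cells near the lumen. Krt7 is a type II keratin of ductal and simple epithelia, and Krt23 is a type I keratin of low abundance. In mouse colon, loss of Krt8 is known to cause hyperplasia and colitis.

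The libraries held from 15439123 to 20350539 counted reads, and the floor of 3 counts stood at 0.146 to 0.242 CPM. CPM are counts scaled to the library's total of tested genes times its TMM factor. That factor was 0.803 in Nsd2 f/f replicate 3, 0.887 in Nsd2 Vil-KO replicate 2 and 1.06 to 1.10 in the other libraries. The level of Nsd2 was 47.9, 51.2 and 24.6 CPM in the Nsd2 f/f libraries against 24.2, 10.4 and 20.8 CPM in those of Nsd2 Vil-KO (values are given in the order of replicates 1, 2 and 3 throughout). It was lower in Nsd2 Vil-KO (log2 fold change -1.16 ± 0.39 SE, unadjusted p = 0.022, adjusted p = 0.992, edgeR quasi-likelihood test), and the lowest Nsd2 f/f library lay next to the highest Nsd2 Vil-KO library. Nsd2 f/f replicate 3 and Nsd2 Vil-KO replicate 2 stood apart from the rest, with mean Spearman correlations to the other libraries of 0.937 and 0.927 against 0.959 to 0.964. These 2 were also the only libraries with more than 1 CPM of Xist, the transcript of the inactive X chromosome of females, at 347 and 204 CPM. Mitochondrial transcripts took 19.6% of the counts in Nsd2 f/f replicate 3 and from 5.51% to 9.13% in the other 5. Of 14650 genes tested, 482 passed the screening criterion (fold change above 1.2 and unadjusted p below 0.05), which is 3.29%, with 1.65% higher and 1.65% lower in Nsd2 Vil-KO. None had an adjusted p below 0.05 (0%) in edgeR, where 482 had an unadjusted p below 0.05, and 4 had one in DESeq2. Markers of epithelial identity (Epcam, Cdh1, Vil1, Cdx2 and 8 others) were present in all libraries, at a summed 18275 to 19722 CPM in Nsd2 f/f and 16091 to 19764 CPM in Nsd2 Vil-KO.

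All 10 keratins had counts in at least 1 library, 9 of the 10 were abundant enough to test, and 0 of those 9 passed the criterion. The simple keratins held between 99.87% and 99.98% of the length-scaled keratin signal of the 10 genes, and the stress or squamous keratins between 0.022% and 0.130%. The summed level of the 6 simple keratins was 7287, 8723 and 13164 CPM in Nsd2 f/f and 8621, 11214 and 9965 CPM in Nsd2 Vil-KO. That of the 4 stress or squamous keratins was 7.28, 6.74 and 2.75 CPM in Nsd2 f/f and 7.12, 13.0 and 7.31 CPM in Nsd2 Vil-KO. Both sums overlapped between genotypes, and Nsd2 f/f replicate 3 was the highest library for the simple and the lowest for the stress or squamous keratins. Together the 10 genes took from 0.802% (Nsd2 f/f replicate 1) to 1.08% (Nsd2 Vil-KO replicate 3) of all counted reads. By this share, which has no TMM scaling, Nsd2 f/f replicate 3 stood at 1.06% and was not the highest library. The total of counted reads includes mitochondrial transcripts, which lower the share. They took 19.6% of the counts in Nsd2 f/f replicate 3 and 5.51% in Nsd2 Vil-KO replicate 3. The order by this share therefore does not show the effect of TMM scaling alone. In bulk RNA a smaller number of cells of a type and less RNA in each cell cannot be told apart.

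Scaled to exon length, the order of the mean levels over the 6 libraries was Krt8 at 2298 RPKM (CPM per kilobase of exon), Krt19 at 1886, Krt20 at 558, Krt18 at 328, Krt7 at 36.1, Krt23 at 18.7, Krt36 at 3.46, Krt14 at 0.442, Krt80 at 0.119 and Krt17 at 0.025 RPKM. As mean shares of the signal of the 10 genes, Krt8 held 44.7%, Krt19 36.5%, Krt20 11.3% and Krt18 6.36%. Krt8 was above Krt19 in each library, although their ranges overlapped, at 1700 to 3241 RPKM and 1302 to 2699 RPKM. Krt20 was above Krt18 in 5 of 6 libraries, and in Nsd2 Vil-KO replicate 2 the order was turned, at 332 and 653 RPKM. The same library turned the order of Krt7 and Krt23, at 67.3 and 86.1 RPKM, and Nsd2 f/f replicate 2 that of Krt23 and Krt36, at 2.11 and 2.94 RPKM. The exon length of Krt7 (7049 bases) and of Krt80 (6393 bases) is the union over all annotated transcripts, against 4094 and 3919 bases for the longest single transcript, so their length-scaled levels are the lower ones of the possible scalings. The turned order of Krt7 and Krt23 depends on this scaling. Without length scaling they stood at 474 and 135 CPM in Nsd2 Vil-KO replicate 2.

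**Figure D1:**
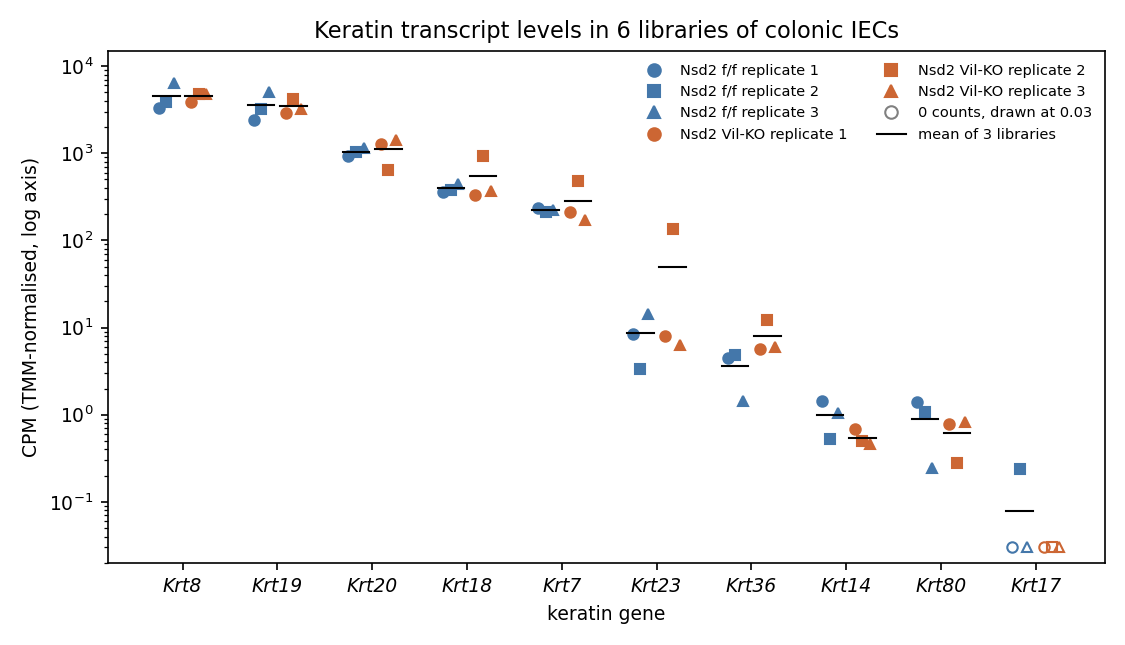
Level of each of the 10 keratins in each library, as TMM-normalised CPM on a log axis, with Nsd2 f/f in blue, Nsd2 Vil-KO in orange and the mean of 3 libraries as a bar; open symbols stand for 0 counts. Krt8 and Krt19 are the highest genes, Krt14, Krt80 and Krt17 lie below 2 CPM in each library, and Nsd2 Vil-KO replicate 2 (orange square) leaves the other libraries for Krt20, Krt18, Krt7 and Krt23.

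The promoter sequences of 4 simple keratins are shown because their transcripts parted between libraries: Krt8 and Krt18 as the classical type II and type I pair, and Krt20 and Krt23 as the genes that went opposite ways in Nsd2 Vil-KO replicate 2. RefSeq windows on GRCm38.p6, from 250 bases before to 50 bases after the annotated start, were found for 7 of the 10 genes, and the stretch printed is the part that precedes every annotated exon. It spans chr15:102004483-102004592 (minus strand) for Krt8, chr15:102027966-102028179 (plus strand) for Krt18, chr11:99438151-99438403 (minus strand) for Krt20 and chr11:99493138-99493370 (minus strand) for Krt23. Letters run 5′ to 3′ on the strand of the gene, and capitals mark matches to the motifs searched on both strands.
Krt8: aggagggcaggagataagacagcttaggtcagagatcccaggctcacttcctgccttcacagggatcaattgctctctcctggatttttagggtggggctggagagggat
Krt18: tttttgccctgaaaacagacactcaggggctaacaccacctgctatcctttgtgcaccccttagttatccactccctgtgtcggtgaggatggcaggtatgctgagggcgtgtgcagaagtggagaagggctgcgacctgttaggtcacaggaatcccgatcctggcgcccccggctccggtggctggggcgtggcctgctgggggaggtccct
Krt20: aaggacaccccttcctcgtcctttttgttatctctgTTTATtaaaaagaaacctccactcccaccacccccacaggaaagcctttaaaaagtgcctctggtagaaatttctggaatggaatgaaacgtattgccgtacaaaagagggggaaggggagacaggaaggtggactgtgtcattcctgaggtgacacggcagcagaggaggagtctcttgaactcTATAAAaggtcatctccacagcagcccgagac
Krt23: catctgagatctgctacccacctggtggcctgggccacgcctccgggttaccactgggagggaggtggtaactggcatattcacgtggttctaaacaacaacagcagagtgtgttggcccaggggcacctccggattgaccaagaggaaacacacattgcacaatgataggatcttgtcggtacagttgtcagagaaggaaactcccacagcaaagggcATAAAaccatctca
The motifs were the TATA box TATAAA, the GC box GGGCGG, the AP-1 site TGANTCA and TTTAT, the core bound by CDX factors, whose reverse complement ATAAA lies inside TATAAA. The Krt20 stretch held TTTAT from base 37 and TATAAA from base 222, and the Krt23 stretch held ATAAA from base 220. The Krt18 window held none of the 4 motifs, and the matches of the Krt8 window to TATAAA (2) and to TTTAT (2) lay past the stretch printed. Of 32851 promoter windows of the same length, 13.6% held TATAAA, 40.0% held TTTAT on either strand, 35.7% held GGGCGG and 7.81% held TGANTCA, so these matches are a description of the letters only.

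Krt8 and Krt19 (Krt8 at chr15:101996698-102004482, ENSMUSG00000049382; Krt19 at chr11:100140810-100148665, ENSMUSG00000020911) did not differ between genotypes beyond the spread of the libraries. Krt8 stood at 3328, 3881 and 6346 CPM in Nsd2 f/f and at 3895, 4806 and 4744 CPM in Nsd2 Vil-KO. The means were 4518 ± 1607 and 4481 ± 509 CPM (SD, n = 3 each), and the log2 fold change was -0.01 ± 0.35 (SE, adjusted p = 0.999, edgeR quasi-likelihood test). On this TMM-scaled measure Nsd2 f/f replicate 3 was highest and Nsd2 f/f replicate 1 lowest, so that the Nsd2 f/f libraries enclosed all Nsd2 Vil-KO libraries. Krt19 followed the same order at the top and bottom, with 2415, 3200 and 5006 CPM in Nsd2 f/f and 2911, 4220 and 3245 CPM in Nsd2 Vil-KO. Its log2 fold change was -0.03 ± 0.37 (SE, adjusted p = 0.999, edgeR). Without Nsd2 f/f replicate 3 the log2 fold changes were 0.32 for Krt8 and 0.30 for Krt19. Of the 100-base windows of the Krt8 transcript, 16.9% were shared with its pseudogene Krt8-ps, which stood at 4.71 to 7.43 CPM, so reads between these copies may have been split.

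The ratio between these 2 keratins varied less than their levels. Krt8 exceeded Krt19 by 1.31, 1.15 and 1.201 times in Nsd2 f/f and by 1.27, 1.08 and 1.38 times in Nsd2 Vil-KO on the RPKM scale, while the highest library exceeded the lowest by 1.91 times for Krt8 and 2.07 times for Krt19. Likewise, the ratio of all type II to all type I members lay between 0.752 and 0.908 in the 6 libraries, with means of 0.849 ± 0.058 in Nsd2 f/f and 0.820 ± 0.068 in Nsd2 Vil-KO (SD, n = 3 each). The genotypes overlapped for both ratios. Both ratios are set mainly by Krt8 and Krt19, the most abundant genes of the 10.

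Krt18 (chr15:102028180-102032027, ENSMUSG00000023043) and Krt7 (chr15:101411043-101430313, ENSMUSG00000023039) had 1 library far above the rest. Krt18 stood at 364, 384 and 440 CPM in Nsd2 f/f and at 333, 939 and 365 CPM in Nsd2 Vil-KO. Krt7 stood at 236, 212 and 220 CPM in Nsd2 f/f and at 209, 474 and 172 CPM in Nsd2 Vil-KO. For both, Nsd2 Vil-KO replicate 2 was highest, at 2.57 and 2.23 times the median of the other 5 libraries, and the other Nsd2 Vil-KO libraries lay near or below the Nsd2 f/f libraries. The log2 fold change was 0.46 ± 0.42 for Krt18 (SE, adjusted p = 0.992, edgeR) and -0.18 without that library. For Krt7 it was 0.36 ± 0.38 (SE, adjusted p = 0.992, edgeR) and -0.22 without it. In the 3 Nsd2 f/f libraries both genes were even, with a coefficient of variation of 9.96% for Krt18 and 5.41% for Krt7, against 35.6% for Krt8.

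Krt23 (chr11:99477974-99493137, ENSMUSG00000006777) had the widest range of the simple keratins. It stood at 8.52, 3.31 and 14.4 CPM in Nsd2 f/f (172, 56 and 178 counts) and at 8.04, 135 and 6.23 CPM in Nsd2 Vil-KO (165, 2429 and 122 counts). Nsd2 Vil-KO replicate 2 exceeded the median of the other 5 libraries by 16.8 times, and the other Nsd2 Vil-KO libraries lay inside the Nsd2 f/f range. The log2 fold change of 2.52 ± 1.22 (SE, unadjusted p = 0.078, adjusted p = 0.992, edgeR) became -0.28 without this library.

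Krt20 (chr11:99428403-99438150, ENSMUSG00000035775) went the other way in the same library. It stood at 936, 1043 and 1137 CPM in Nsd2 f/f and at 1265, 640 and 1432 CPM in Nsd2 Vil-KO. The highest and next highest libraries as well as the lowest were Nsd2 Vil-KO, and the Nsd2 f/f libraries lay between them with a coefficient of variation of 9.67%. The log2 fold change was 0.10 ± 0.34 (SE, adjusted p = 0.999, edgeR). In the 4 libraries without Nsd2 f/f replicate 3 and Nsd2 Vil-KO replicate 2, Krt20 was higher in Nsd2 Vil-KO by 0.46 on the log2 scale (unadjusted p = 0.0094, adjusted p = 0.366, edgeR) and was then the only keratin of the 10 to pass the criterion, as did 1646 of 15030 genes. That comparison rests on 2 libraries a genotype.

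**Figure D2:**
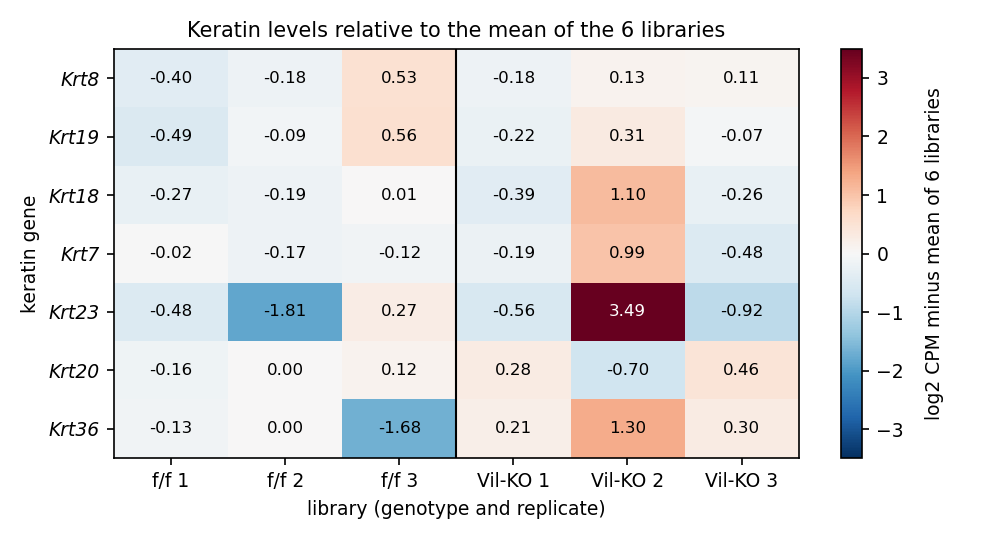
Heat map of log2 CPM minus the mean of the 6 libraries for the 7 keratins with a mean above 1 CPM, with genes in rows, libraries in columns and the genotypes divided by the vertical line; red is above and blue below the mean of the gene. In Nsd2 Vil-KO replicate 2, Krt23 (3.49), Krt36 (1.30), Krt18 (1.10) and Krt7 (0.99) lie above their means and Krt20 lies below its mean (-0.70).

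The root mean square difference between the patterns of 2 genes was 0.12 for Krt8 and Krt19 and 0.17 for Krt18 and Krt7, the nearest pairs, and it was 0.46 for Krt8 and Krt20, 0.49 for Krt8 and Krt18 and 0.85 for Krt18 and Krt20. Krt23 lay farther from each of the other simple keratins, at 1.22 from Krt18, 1.27 from Krt7 and 1.98 from Krt20. The RPKM ratio of Krt20 to Krt18 was 1.92, 2.03 and 1.93 in Nsd2 f/f and 2.84, 0.508 and 2.92 in Nsd2 Vil-KO. The ratio of Krt8 to Krt18 was 6.71, 7.43 and 10.6 in Nsd2 f/f and 8.59, 3.76 and 9.53 in Nsd2 Vil-KO. For both ratios Nsd2 Vil-KO replicate 2 was lowest, and the genotypes overlapped.

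**Figure D3:**
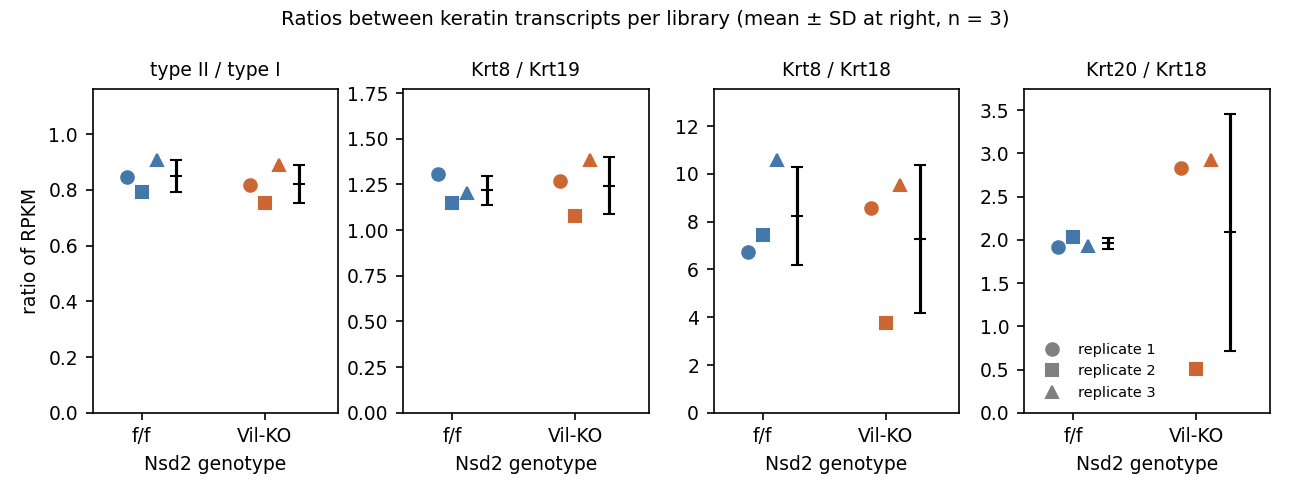
RPKM ratios between keratins in each library (circle, square and triangle for replicates 1, 2 and 3), with mean ± SD at the right of each genotype (n = 3) and axes that start at 0. The type II to type I and Krt8 to Krt19 ratios stay within 0.752 to 0.908 and 1.08 to 1.38, while the Krt20 to Krt18 ratio spans 0.508 to 2.92 with Nsd2 Vil-KO replicate 2 at its lower end.

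Some markers of epithelial state also set this library apart. Injury-associated epithelial genes (8 genes, none at 0 throughout) had a summed level of 1883, 1701 and 700 CPM in Nsd2 f/f and 1749, 9611 and 2064 CPM in Nsd2 Vil-KO. In Nsd2 Vil-KO replicate 2, 6 of the 8 were at their highest, among them Lcn2 (1808 CPM against at most 75.0) and Anxa1 (992 CPM against at most 222), while Clu was at its lowest (0.721 CPM) and Sprr1a (9.26 CPM) lay within the range of the others. Of these 8 genes, 2 passed the criterion, where 3.29% of all genes tested passed. Both were higher in Nsd2 Vil-KO, namely Reg3b (log2 fold change 4.02 ± 1.38) and Reg3g (3.69 ± 1.25), which encode antimicrobial lectins (both adjusted p = 0.992, edgeR). Reg3b stood at 190, 88.7 and 6.22 CPM in Nsd2 f/f and at 378, 3807 and 428 CPM in Nsd2 Vil-KO. The values of Reg3g were 65.9, 34.7 and 1.70 CPM in Nsd2 f/f and 145, 978 and 200 CPM in Nsd2 Vil-KO. Neither gene overlapped between genotypes, as was seen for 9.9% of all genes tested. The median log2 fold change of the 8 was 2.22, against 0.00 over all genes tested. Genes of surface colonocytes (18 of 18 tested) summed to 8497, 9996 and 13383 CPM in Nsd2 f/f and 9857, 7345 and 9380 CPM in Nsd2 Vil-KO. Nsd2 Vil-KO replicate 2, where Krt20 was lowest, had the lowest sum, but without Muc3, the most abundant of the list, it stood at 4973 CPM and Nsd2 f/f replicate 2 at 4831 CPM. In that library 7 of the 18 genes were at their lowest and 3 at their highest. Of the 18, Slc51a passed upward (4.39 ± 1.79) and Slc37a2 downward (-4.33 ± 1.72), both transporters with an adjusted p of 0.992 in edgeR. Of all genes tested 3.29% passed, and the median log2 fold change of the 18 was -0.15. Slc51a was raised in Nsd2 Vil-KO replicate 2 only (20.8 CPM against at most 0.975), and Slc37a2 was far higher in Nsd2 f/f replicate 3 (479 CPM) than in any other library (at most 53.2). Crypt base genes (11 of 12 tested, 0 called, median -0.01) summed to 1499, 1350 and 679 CPM in Nsd2 f/f and 1356, 987 and 1594 CPM in Nsd2 Vil-KO. In Nsd2 Vil-KO replicate 2, 6 of the 12 were at their lowest, among them Lgr5 (0.111 CPM against at least 7.11). There 2 were at their highest, Sox9 (90.6 CPM) and Slc12a2, which supplied 582 of the 987 CPM. The part of these cell states in the keratin levels was not tested.

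Genes listed as markers of non-epithelial cells also differed between libraries. Leukocyte markers (13 of 13 tested, 0 called, median -0.76) ranged from 32.6 to 811 CPM in Nsd2 f/f and from 79.2 to 1008 CPM in Nsd2 Vil-KO. The highest sum, in Nsd2 Vil-KO replicate 2, came almost wholly from S100a8 (574 CPM) and S100a9 (405 CPM). Which cells held these transcripts was not tested. Without these genes the list summed to 256, 94.9 and 24.9 CPM in Nsd2 f/f and to 104, 29.3 and 46.7 CPM in Nsd2 Vil-KO, and the pan-leukocyte gene Ptprc was lowest in that library, at 5.71 CPM. Fibroblast markers (8 of 8 tested, 0 called, median -1.39) ranged from 16.7 to 303 CPM in Nsd2 f/f and from 43.3 to 127 CPM in Nsd2 Vil-KO. Smooth muscle markers (6 of 6 tested, 0 called, median -0.55) lay between 2.18 and 20.6 CPM in Nsd2 f/f and between 3.33 and 12.3 CPM in Nsd2 Vil-KO. Of 6 endothelial markers 2 were tested, and 1 of them passed the criterion, where 3.29% of all genes tested passed. This was Pecam1, which was lower in Nsd2 Vil-KO (-1.33 ± 0.55, adjusted p = 0.992, edgeR). The endothelial markers summed to 3.13 to 5.10 CPM in Nsd2 f/f and 0.777 to 3.12 CPM in Nsd2 Vil-KO. Markers of mesothelium, another tissue that contains Krt7, Krt8, Krt18 and Krt19, had 3 of 7 genes tested and 0 called (median -0.44), with sums of 3.39 to 25.0 CPM in Nsd2 f/f and 4.80 to 16.6 CPM in Nsd2 Vil-KO. The sums for fibroblasts and mesothelium were highest in Nsd2 f/f replicate 1, where Krt8 and Krt19 were lowest, and the part of these cells in the keratin levels was not tested.

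Among the stress or squamous keratins, Krt36 (chr11:100102007-100105626, ENSMUSG00000020916) was the most abundant and the only keratin of the 10 whose genotypes did not overlap. It stood at 4.46, 4.90 and 1.45 CPM in Nsd2 f/f (90, 83 and 18 counts) and at 5.66, 12.2 and 6.03 CPM in Nsd2 Vil-KO (116, 220 and 118 counts). The criterion was not met, at a log2 fold change of 1.12 ± 0.53 (SE, unadjusted p = 0.072, adjusted p = 0.992, edgeR) and an exact permutation p of 0.1 (two-sided), the smallest that 3 against 3 libraries allow. Genotypes without overlap were seen for 9.9% of all genes tested, and 1 of 9 keratins is near that share. The gap between the genotypes was small, from 4.90 to 5.66 CPM, and the extremes were again Nsd2 f/f replicate 3 and Nsd2 Vil-KO replicate 2. Without these libraries the log2 fold change was 0.33.

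The other members of this class were close to the limit of detection. Krt14 (chr11:100203162-100207548, ENSMUSG00000045545) had 29, 9 and 13 counts in Nsd2 f/f and 14, 9 and 9 counts in Nsd2 Vil-KO, with a log2 fold change of -0.88 ± 0.54 (SE, adjusted p = 0.992, edgeR). Krt80 (chr15:101347444-101370162, ENSMUSG00000037185), a type II keratin, had 28, 18 and 3 counts and 16, 5 and 16 counts, with a log2 fold change of -0.58 ± 0.67 (SE, adjusted p = 0.992, edgeR). Krt17 (chr11:100256217-100261029, ENSMUSG00000035557) had 4 counts in Nsd2 f/f replicate 2 and 0 in the other 5 libraries, and was not tested. No difference was detected for Krt14 or Krt80. The counts of Krt14 may include reads of Krt16, with which it shares 2.88% of its 100-base windows, but Krt16 itself had only 3 counts in total. The counts of Krt80, Krt7 and Krt8 may include reads of genes on the opposite strand that overlap them by 263, 77 and 101 bases. It is not known whether strand was used in counting.

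The contrast between the classes did not separate the genotypes. The log2 ratio of summed RPKM of stress or squamous to simple keratins was -10.0, -10.3 and -12.2 in Nsd2 f/f and -10.2, -9.59 and -10.3 in Nsd2 Vil-KO. The mean difference between Nsd2 Vil-KO and Nsd2 f/f was 0.79, with a pooled SD of 0.87, and the groups overlapped. It was -0.10 in the 4 libraries without Nsd2 f/f replicate 3 and Nsd2 Vil-KO replicate 2, and 0.12 without Nsd2 f/f replicate 3 alone. Krt36 made up 57.8% to 95.7% of the summed stress or squamous RPKM, and its share was lowest in Nsd2 f/f replicate 3, where Krt14 made up 39.7%. The class ratio therefore describes mainly this hair-type keratin, Krt36, against the simple keratins. The median log2 fold change was 0.23 for the 6 simple keratins, 4 of which had positive values, and -0.58 for the 3 tested stress or squamous keratins, 1 of which was positive, against 0.00 over all genes tested. Without Nsd2 Vil-KO replicate 2 these medians were -0.19 and -0.25.

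**Figure D4:**
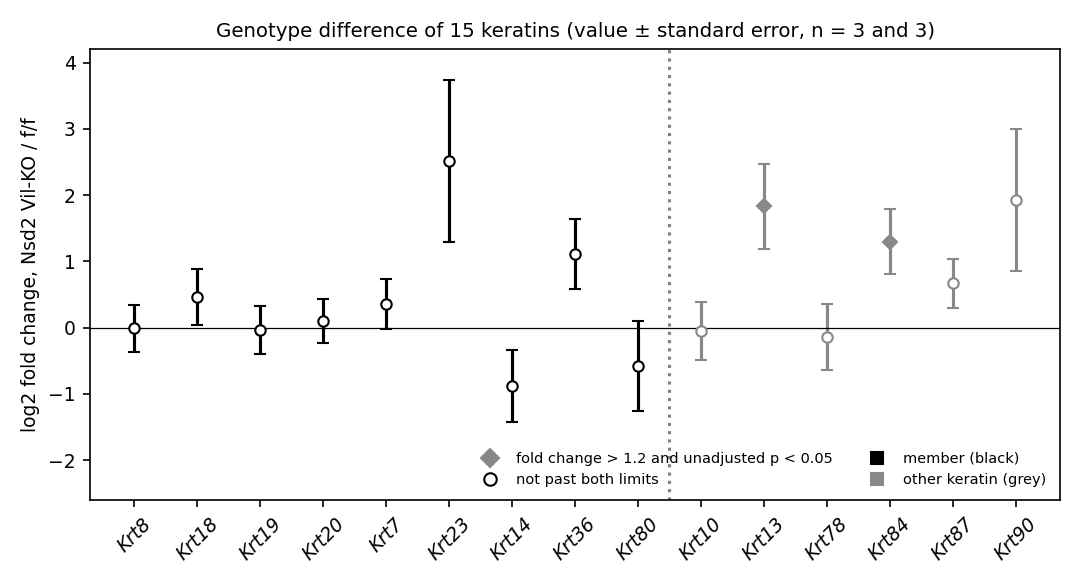
Log2 fold change of Nsd2 Vil-KO over Nsd2 f/f with its SE for the 9 tested keratins of the 10 (black) and for 6 other keratins with a mean of at least 1 CPM (grey), from 3 libraries a genotype. None of the black points passes the criterion, and Krt13 (1.83) and Krt84 (1.30), drawn as filled diamonds, do so at an adjusted p of 0.992.

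The table lists 54 keratin genes in all, and of the other 44, 19 had no counts in any library and 7 were tested. Of those 7, 2 passed the criterion, where 3.29% of all genes tested passed, and both were higher in Nsd2 Vil-KO. Krt84, a type II hair-type keratin (chr15:101525026-101532820, ENSMUSG00000044294), stood at 5.60, 3.96 and 1.62 CPM in Nsd2 f/f and at 12.1, 9.65 and 6.18 CPM in Nsd2 Vil-KO. All Nsd2 Vil-KO libraries lay above all Nsd2 f/f libraries, with a log2 fold change of 1.30 ± 0.49 (SE, unadjusted p = 0.032, adjusted p = 0.992, edgeR). Krt13, a type I keratin of non-cornified squamous epithelium (chr11:100117327-100121566, ENSMUSG00000044041), had 19, 9 and 1 counts in Nsd2 f/f and 54, 24 and 40 counts in Nsd2 Vil-KO. These groups did not overlap either, and the log2 fold change was 1.83 ± 0.64 (SE, unadjusted p = 0.024, adjusted p = 0.992, edgeR). Krt87, also of the hair type, stood at 7.28, 5.20 and 3.07 CPM in Nsd2 f/f and at 7.51, 9.38 and 8.07 CPM in Nsd2 Vil-KO, without overlap and with a log2 fold change of 0.67 ± 0.37 (SE, adjusted p = 0.992, edgeR). Nsd2 f/f replicate 3, which stood apart from the rest, was the lowest library for Krt84, Krt13 and Krt87, as it was for Krt36. Genotypes without overlap were seen for 9.9% of all genes tested. Krt90 varied from 0.485 to 23.2 CPM with overlap (1.93 ± 1.06, adjusted p = 0.992, edgeR), and Krt10 and Krt78 had log2 fold changes of -0.05 and -0.14.

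Markers of squamous epithelium were mostly absent. Of 23 such genes, 8 had no counts in any library (Dsg1a, Sprr1b, Sprr3, Ivl, Krtdap, Calml3, Krt5 and Krt4), 17 had a mean below 1 CPM, and Trp63, the regulator of basal squamous cells, was at most 0.118 CPM. The list summed to 53.2 to 93.7 CPM in Nsd2 f/f and to 88.2 to 174 CPM in Nsd2 Vil-KO, most of it from Pkp1, Ly6d and Dsg3. Of 7 tested, 1 passed the criterion (Krt13, higher), where 3.29% of all genes tested passed, and the median was 0.34. Krt5, the usual type II partner of Krt14, was thus at 0, where Krt14 had from 9 to 29 counts a library.

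Genes that anchor or organise keratin filaments did not differ between genotypes beyond the spread of the libraries. Of 16 desmosomal, plakin and regulatory genes tested, 0 passed the criterion, 14 had positive and 2 negative log2 fold changes, and the median was 0.24. The 4 most abundant were Dsp, which ties keratin to desmosomes (mean 511 CPM, log2 fold change 0.15 ± 0.24), the cytolinker Plec (406 CPM, 0.42 ± 0.31), the desmosomal cadherin Dsg2 (382 CPM, 0.19 ± 0.20) and plakoglobin Jup (354 CPM, 0.27 ± 0.20), with adjusted p-values of 0.992 to 0.993 in edgeR. Fam83h, which brings casein kinase 1 to keratin filaments and was named here on account of its values, stood at 130, 137 and 142 CPM in Nsd2 f/f and at 164, 171 and 170 CPM in Nsd2 Vil-KO. Its genotypes did not overlap, and its log2 fold change of 0.30 ± 0.16 did not pass (SE, unadjusted p = 0.096, adjusted p = 0.992, edgeR). Those of Pkp2 did not overlap either, at 52.1 to 67.4 CPM in Nsd2 f/f and 73.1 to 75.3 CPM in Nsd2 Vil-KO. Genotypes without overlap were seen for 9.9% of all genes tested. Evpl, a plakin chosen likewise after its values were seen, lay below the other libraries in Nsd2 Vil-KO replicate 2, at 13.2 CPM against 63.8 to 119 CPM. Of 7 other intermediate filament genes 5 were tested and 0 passed (median 0.02), with sums of 563 to 606 CPM in Nsd2 f/f and 559 to 652 CPM in Nsd2 Vil-KO.

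The genes whose patterns lay nearest to single keratins were sought among 13334 tested genes, by the root mean square difference of centred log2 CPM over the 6 libraries. Nearest to Krt8 were Stam2 (0.067), Gm47770 (0.070) and Klf4 (0.081), where the median gene lay at 0.448. Klf4, a transcription factor of differentiated colonocytes, stood at 435, 584 and 803 CPM in Nsd2 f/f and at 537, 646 and 675 CPM in Nsd2 Vil-KO, with the same highest and lowest library as Krt8. Nearest to Krt20 were 2900026A02Rik (0.053), Sh3d19 (0.077) and Zzef1 (0.083), against a median of 0.518. Nearest to Krt36 were Tspan4 (0.158), Lpo (0.182) and Ctps (0.200), against a median of 0.954. The distances rest on 6 libraries, of which 2 stand apart, and are a description.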

How the data were processed

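RNA-seq of IECs from DSS-treated mice comprised 6 libraries, grouped by their labels. What the authors deposited are raw read counts per gene. The submitters' processing notes name HISAT2 and mm10; the labels and the study's methods name different library kits, and the counting program is not given in the sources used here.

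Counts were tested in R 4.3.3 with edgeR 4.0.16 (TMM, filterByExpr by genotype, robust quasi-likelihood test, Benjamini-Hochberg adjustment over all genes tested). CPM used TMM-scaled totals of tested genes, and RPKM and coordinates used GENCODE vM21 on GRCm38 (union exon length). Pattern distances used log2 CPM with a prior count of 2. Permutation tests were two-sided. Floors cover counting error only. The test was also run on simulated data, in which no library stood apart, and the outcome is not reported here.

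The members and gene lists were chosen with earlier results of these data known. The text names the 10 members, other keratins that passed or averaged at least 1 CPM, list genes that passed, the 4 most abundant linkers, and the 3 genes nearest in pattern to Krt8, Krt20 and the most abundant stress or squamous member. Fam83h, Pkp2, Evpl, Krt8-ps, Xist and single marker genes of cell types and epithelial states were named after their values were seen. Some single marker genes are not reported here. Alternatives covered normalisation, filter, model (DESeq2 1.42.0, limma-voom 3.58.1), fold limit, length scaling, mitochondrial genes, a replicate block and left-out libraries; the legacy quasi-likelihood form was added after seeing the data. Figures were drawn with matplotlib 3.10.9.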

Additional observations from a re-analysis of the deposited data

How the results depend on the processing

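Each member was recomputed under up to 17 alternatives, giving 151 values, of which 121 kept their direction and their side of the criterion, 7 newly passed and 23 changed sign. The 482 genes passing the criterion became 861 with no filter on low counts, 1440 with limma-voom, 1646 in the 4 libraries without Nsd2 f/f replicate 3 and Nsd2 Vil-KO replicate 2, 279 at a fold change above 2, and 323 to 769 when 1 library was left out (769 without Nsd2 Vil-KO replicate 2). With DESeq2, 4 genes had an adjusted p below 0.05, and with each of the other models 0 had. Members passing numbered 1 with no filter (Krt36), 2 with DESeq2 (Krt23 and Krt36), 1 with limma-voom (Krt20), 1 in the 4 libraries (Krt20) and 0 to 1 with 1 library left out (Krt23, at 3.02 and 3.04 without Nsd2 Vil-KO replicate 1 or 3). Sign changes of the log2 fold change arose with library size alone for Krt8 (0.0899) and Krt19 (0.0562), with no filter for Krt8 (0.000487), with limma-voom for Krt8 (0.21), Krt18 (-0.0591), Krt19 (0.0857) and Krt7 (-0.19), and in the 4 libraries for Krt8 (0.27), Krt18 (-0.0889), Krt19 (0.14) and Krt7 (-0.22). With 1 library left out the values ranged from -0.19 to 0.32 for Krt8, -0.18 to 0.72 for Krt18, -0.25 to 0.30 for Krt19, -0.12 to 0.38 for Krt20, -0.22 to 0.62 for Krt7 and -0.28 to 3.06 for Krt23. Values of Krt14 (-1.19 to -0.48), Krt36 (0.67 to 1.39) and Krt80 (-0.95 to -0.13) kept their sign there. The log2 class ratio difference of 0.79 was -0.10 in the 4 libraries and 0.12 to 1.21 with 1 library left out, and the stress or squamous median became 1.11 with at least 10 counts in each library, since only Krt36 was left. The cause of the other changes was not tested.

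Replicate numbers are shared by the genotypes. The correlations of deviations between same-numbered libraries were 0.32, -0.35 and -0.11, and those between libraries of unlike number ranged from -0.36 to 0.31. With 3 libraries a genotype these values cannot show whether the numbers pair the libraries. With a replicate block 303 genes and 0 members passed, and Krt8 (0.0394) and Krt19 (0.0169) changed sign. Counts of Krt14, Krt80 and Krt17 were at most 29 in any library, which limits their precision.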
